A study of Mus musculus with 10 samples.

Results

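Intronless protein-coding genes, whose every annotated transcript is a single exon, were examined in nuclei of neurons that had lost *Mphosph8* or *Morc2a*. Members were chosen by annotation and level: protein-coding biotype, 1 exon in every GENCODE M21 transcript (GRCm38), an autosome, and a mean CPM, the read count scaled to the library total, of at least 5 over the 10 libraries. Symbols starting with Pcdh, Rpl or Rps, and *Rnf113a2*, *Map10*, *Slc25a2* and *Taf7*, were left out by the rule. Of 1156 autosomal intronless protein-coding genes with counts, 28 were left out by symbol, 970 were below the CPM minimum and 158 remained. The counts covered 54532 genes in all. The mean level was selected on, so the levels below are a description.

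Most mammalian genes are spliced, and intronless genes often arose by reverse transcription of an mRNA and its insertion elsewhere in the genome, as with many retrotransposon-derived genes. The human silencing hub (HUSH) complex contains MPP8, encoded by *Mphosph8*, which binds histone H3 trimethylated on lysine 9, and it works with MORC2, an ATPase that compacts chromatin. HUSH is known for silencing integrated elements that are transcribed without being spliced, such as retrotransposons and their recent copies. Cellular intronless genes in the brain include transcription factors of the SOX and POU families, adhesion proteins, G protein-coupled receptors and histones.

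RNA sequencing had been done on NeuN+ nuclei, the nuclei of neurons, sorted from brains of adult C57BL/6J mice. The 3 *Mphosph8*Δ/Δn libraries came from homozygous floxed *Mphosph8* mice with *Nestin*-Cre, and the 2 *Morc2a*Δ/Δn libraries from homozygous floxed *Morc2a* mice with *Nestin*-Cre. The 5 controls carried floxed alleles without Cre, of *Mphosph8* in replicates 1 to 3 and of *Morc2a* in replicates 4 and 5. *Nestin*-Cre acts in neural progenitors and their descendants and not only in neurons, and no control library carried *Nestin*-Cre, so an effect of Cre itself cannot be told apart from the deletion.

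Each library held between 6686038 and 10764555 counts, and all 158 members passed the filter on low counts, among 18573 genes tested. Where *Mphosph8* and *Morc2a* are counted over all their exons, the loss of exon 4 is not measured directly. *Mphosph8* was at 37.1, 35.9 and 18.8 CPM in the *Mphosph8*Δ/Δn libraries and at 32.2 to 48.9 CPM in the controls. *Morc2a* was at 215 and 222 CPM in the *Morc2a*Δ/Δn libraries, above the 122 to 163 CPM of the controls. These levels therefore do not check the labels, and every direction below rests on the labels. Of 8 genes of the HUSH machinery (*Mphosph8*, *Morc2a*, *Fam208a*, *Pphln1*, *Setdb1*, *Atf7ip*, *Fam208b* and *Trim28*), 0 were called by edgeR in either knockout. Of all genes tested, 0.0969% were called higher and 0% lower in *Mphosph8*Δ/Δn, and 0.0377% and 0.0215% in *Morc2a*Δ/Δn, so 0 of 8 says little. DESeq2 gave *Morc2a* an adjusted p of 0.00239 in *Morc2a*Δ/Δn, at a log2 fold change of 0.64, under the fold minimum. The summed level of 8 markers of neurons was 4473 to 5147 CPM in the controls, 4551 to 4823 CPM in *Mphosph8*Δ/Δn and lower, 3551 and 4175 CPM, in *Morc2a*Δ/Δn. The summed level of 10 pituitary genes was 4.02 to 23.4 CPM in the controls and 301 CPM in *Mphosph8*Δ/Δn replicate 2, where *Pomc* and *Gh* led, against 15.2 and 16.6 CPM in the other 2 *Mphosph8*Δ/Δn libraries. *Prl* and *Cga* were also highest in replicate 2, but *Pou1f1* (0.97 CPM) lay within the controls. *Fshb*, *Pitx1* and *Ghrhr* had no counts in any library. In the other knockout libraries *Gh* was at 1.65 to 3.93 CPM, against at most 0.30 CPM in the controls.

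The stretch just upstream of the start is shown for a few members, because intronless genes that descend from copied mRNAs had to acquire a promoter. Of the 158 members, 113 matched a RefSeq promoter on GRCm38.p6, a window of 300 bases around the annotated start. Of these 113 windows, 5.31% held TATAAA on either strand, against 6.65% of windows of intron-containing genes at the same CPM minimum and 13.6% of all windows in the table. The median number of CG dinucleotides per window was 21 in the members, 21 in intron-containing genes and 7 in all windows. The 4 members below were, in each knockout, the first 2 by smallest p whose RefSeq and GENCODE starts lay close together and whose upstream bases held no annotated exon. Capitals mark CG dinucleotides, and each stretch of 120 bases reads 5′ to 3′ on the gene's strand, ending just before the start.
*Nhlrc1* (chr13:47014851-47014970, minus strand): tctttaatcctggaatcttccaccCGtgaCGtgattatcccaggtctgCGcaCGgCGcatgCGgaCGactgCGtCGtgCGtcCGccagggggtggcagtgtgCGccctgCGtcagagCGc
*Pnma1* (chr12:84148490-84148609, minus strand): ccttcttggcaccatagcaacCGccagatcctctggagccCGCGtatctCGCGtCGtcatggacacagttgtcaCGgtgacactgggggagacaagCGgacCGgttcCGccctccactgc
*Tspyl1* (chr10:34282070-34282189, plus strand): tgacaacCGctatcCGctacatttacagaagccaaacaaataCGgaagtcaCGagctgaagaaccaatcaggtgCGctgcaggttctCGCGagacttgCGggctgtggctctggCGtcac
*Kcnf1* (chr12:17176889-17177008, minus strand): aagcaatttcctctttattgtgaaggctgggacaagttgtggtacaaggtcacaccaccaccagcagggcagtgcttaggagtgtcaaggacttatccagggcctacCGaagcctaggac
The 120 bases held 14 CG dinucleotides in *Nhlrc1*, 10 in *Pnma1*, 9 in *Tspyl1* and 1 in *Kcnf1*, and the 300-base window held TATAAA in none of the 4.

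The members lay on all 19 autosomes, with at most 21 on 1 chromosome, chromosome 2. Their exonic length had a median of 2622 bases (range 531 to 11294), against 4941 bases in 10670 autosomal protein-coding genes with introns at the same CPM minimum. Their GC content had a median of 53.6%, against 49.7% in the genes with introns. Adenine made up a median of 22.8% of the sense strand, against 25.3%. Per kilobase of exon, the control level had a median of 8.96 CPM in the members and 9.61 CPM in the genes with introns. The coefficient of variation over the 5 controls had a median of 22.8% in the members and 16.9% in the genes with introns, with fewer counts per gene in the members.

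Many members are not isolated in the genome. Of the 158 members, 19 lay inside the span of another gene on the same strand, 17 inside one on the opposite strand, 42 shared exonic bases with another gene and 93 had none of these overlaps. How the authors' counting treated strand and reads in several genes is not given in the sources used here, so the values of overlapping members are uncertain. Host and member did not always have similar values. *4931440F15Rik* lies in *Eml6*, and in *Morc2a*Δ/Δn it stood at -1.55 on the log2 scale against -0.04 for *Eml6*. *Mab21l1*, a gene of eye and neural development, lies opposite to *Nbea*, and its log2 fold change was 0.64 in *Mphosph8*Δ/Δn but -0.72 in *Morc2a*Δ/Δn against -0.03 and -0.07 for *Nbea*. These were chosen after their values were seen, and neither member was called.

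In 20 members, more than 20% of 50-base windows also occurred in a transcript of another gene. Of these, 2 shared no exonic base with another gene, and in the rest the windows may come from bases annotated to both genes. *Ttc30b*, which encodes a protein of intraflagellar transport, the traffic along cilia, shared 34.8% of its windows, mostly with its paralog *Ttc30a2*, without sharing an exonic base. A read as long as the ones sequenced cannot be assigned to either gene in such a window, and this coding stretch of *Ttc30b* (chr2:75938337-75938386 of GRCm38, minus strand) is one:
*Ttc30b* and *Ttc30a2*: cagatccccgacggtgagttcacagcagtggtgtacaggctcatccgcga

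Levels spanned a wide range, and all levels in this paragraph are control means with SD over 5 libraries. *Ndn*, an imprinted gene whose product necdin is known for restraining proliferation in differentiating neurons, was the highest at 339 ± 40.7 CPM. *Pnmal2*, a member of the retrotransposon-derived PNMA family, followed at 202 ± 39.4 CPM, and *Kcnf1*, a modifying subunit of voltage-gated potassium channels, stood at 169 ± 31.1 CPM. Per kilobase, *Rprml* (100.3 CPM), *0610012G03Rik* (98.5 CPM) and *Ndn* (91.9 CPM) led. At the lower edge of the rule, *Sox4* (5.13 CPM over all 10 libraries without scaling), *Cdk5r2* (5.20 CPM) and *Alyref2* (5.25 CPM) were just inside, and *Fbxl14* (4.87 CPM), *Sowahc* (4.81 CPM) and *Gm5136* (4.80 CPM) just outside.

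Among transcription factors, *Sox11*, a factor of immature neurons, was at 128 ± 12.3 CPM, *Pou3f2* at 39.5 ± 6.87 CPM and *Pou3f3* at 23.3 ± 2.97 CPM. *Olig1*, a factor of the oligodendrocyte lineage, was at 51.6 ± 5.08 CPM and *Bhlhe22* at 11.2 ± 3.16 CPM. Of the genes induced early after stimulation, *Ier5* was at 55.8 ± 11.5 CPM, *Ier2* at 31.3 ± 7.93 CPM and *Ier5l* at 19.7 ± 3.76 CPM. Among receptors, the adrenergic receptor gene *Adra2c* was at 30.1 ± 4.37 CPM, followed by *Gpr27* at 24.9 ± 3.97 CPM and *Gpr62* at 17.8 ± 7.73 CPM, and the ranges of 1 SD around the means overlapped between neighbours in this order.

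Of the RNA- and DNA-binding proteins, *Purb* was at 130 ± 19.3 CPM and *Pcbp1* at 95.5 ± 23.8 CPM. The retrotransposon-derived *Rtl6* was at 57.6 ± 20.9 CPM. *Fam43b* was lower at 30.4 ± 6.85 CPM, followed by *Slitrk1*, which acts at synapses, at 22.9 ± 3.75 CPM and *Lrrc10b* at 22.2 ± 5.30 CPM. Histone genes lay close together, with *Hist1h1c* at 19.0 ± 4.36 CPM, *Hist3h2a* at 18.8 ± 1.78 CPM and *H1f0* at 17.4 ± 4.46 CPM. Replication-dependent histone mRNAs mostly lack a poly(A) tail, and poly(A) RNA was sequenced. The small GTPase genes *Rhob* (15.6 ± 4.35 CPM) and *Rap2b* (14.8 ± 3.01 CPM), the phosphatase subunit *Ppp1r3d* (9.28 ± 5.13 CPM) and the chaperone gene *Dnajc30* (20.3 ± 3.59 CPM) completed the named groups. Within the histone genes, the signalling genes and the group of *Fam43b*, *Slitrk1* and *Lrrc10b*, the ranges of 1 SD around the means overlapped between neighbours.

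The first question was whether the members, without the protocadherins and the other symbols left out by the rule, rose when *Mphosph8* was lost. By edgeR's quasi-likelihood test, 0 of the 158 members were called higher in *Mphosph8*Δ/Δn (more than 2-fold, with an adjusted p under 0.05), against 0.0969% of all genes tested (18 of 18573). None of the 158 was called lower either, where 0 (0%) of all genes were. At an unadjusted p below 0.05, 11 members (6.96%) were higher, against 2.58% of all genes, and 3 (1.90%) were lower, against 3.09%. DESeq2 also called 0 members at that fold change, against 0.176% of all genes higher and 0.0605% lower. With no fold minimum it called 2, *Ndn* and *Tram1l1*, higher, against 0.215% of all genes. The median log2 fold change of the members was 0.04, against -0.01 over all genes tested and -0.01 over genes with introns. Above 0 were 92 of the 158 (58.2%), against 48.7% of all genes and 46.8% of genes with introns.

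In 6 members all 3 *Mphosph8*Δ/Δn libraries lay above all 5 controls, against 2.31% of all genes, and in 1 all lay below, against 2.26%. The 6 were *Ndn*, *Tram1l1*, *Pnma1*, *Kbtbd7*, *Slitrk1* and *Gpr135*, and the 1 was *Otud1*. As shares of the 158 members these were 3.80% and 0.633%.

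*Ndn* (ENSMUSG00000033585, chr7:62346569-62350262, plus strand) had the smallest p. It was at 532, 788 and 515 CPM in the *Mphosph8*Δ/Δn libraries and at 311, 396, 369, 316 and 304 CPM in the controls, so the groups did not overlap. Its log2 fold change was 0.85 (SE 0.16), and by edgeR the adjusted p was 0.0541, which missed the threshold. DESeq2 gave an adjusted p of 0.00028, and edgeR without a filter on low counts gave 1.66e-07, both at a fold change under 2. Against controls of the same floxed line the edgeR adjusted p was 0.251, and with replicate number as a block 0.440. The highest of the 3 *Mphosph8*Δ/Δn levels was in replicate 2, the library with the highest sum of pituitary genes. Without that library the log2 fold change was 0.63 and the adjusted p 0.643, with both remaining libraries still above every control. The part of pituitary RNA in the level of *Ndn* was not tested. *Magel2*, its imprinted neighbour on chromosome 7, had a log2 fold change of 0.00.

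*Tram1l1* (chr3:124320855-124324743, plus strand), which encodes a relative of a membrane protein of the secretory translocation channel, was at 174, 147 and 122 CPM in *Mphosph8*Δ/Δn and at 87.1, 100.3, 82.4, 102 and 79.3 CPM in the controls. All 3 knockout libraries were above all controls. The log2 fold change was 0.71 (SE 0.14), with an edgeR adjusted p of 0.0776. DESeq2 gave an adjusted p of 0.00176, and edgeR without a filter on low counts gave 0.00106. Against controls of the same floxed line the edgeR adjusted p was 0.206, and with replicate number as a block 0.205. Without *Mphosph8*Δ/Δn replicate 1 it was 0.457. *Pnma1* (chr12:84146131-84148489, minus strand), of the same PNMA family as *Pnmal2*, was at 9.30, 10.6 and 9.20 CPM against 6.38, 3.31, 5.79, 4.64 and 4.45 CPM. Its groups did not overlap either, and its log2 fold change was 0.98 (SE 0.34, edgeR adjusted p = 0.788).

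Members of the ubiquitin system were on both sides. *Nhlrc1*, which encodes the ubiquitin ligase malin, was at 42.5, 22.8 and 44.3 CPM in *Mphosph8*Δ/Δn against 24.7, 22.8, 16.8, 20.5 and 17.6 CPM in the controls. Replicate 2 lay within the controls and the other 2 libraries above them. *Kbtbd7*, an adaptor of CUL3 ubiquitin ligases, was at 21.8, 23.2 and 31.0 CPM against 16.3, 20.6, 17.7, 13.4 and 16.2 CPM, without overlap. *Otud1*, which removes ubiquitin from proteins, was at 8.37, 9.36 and 4.13 CPM against 13.4, 12.4, 12.4, 12.6 and 15.4 CPM, with every knockout library lower. The log2 fold changes were 0.83, 0.59 and -0.86, with edgeR adjusted p of 0.528, 0.810 and 0.810.

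The other members of the 10 with the smallest p overlapped the controls. *Ttc30b* ranged from 7.65 to 16.0 CPM in *Mphosph8*Δ/Δn and from 3.63 to 8.79 CPM in the controls, with the limit on its windows given above. *Riox1*, a ribosomal oxygenase, ranged from 5.99 to 12.3 CPM against 11.01 to 24.3 CPM. *Tspyl5*, of a family related to nucleosome assembly proteins, ranged from 47.5 to 78.6 CPM against 43.2 to 53.3 CPM, and *2310039H08Rik* from 25.1 to 42.6 CPM against 12.2 to 32.5 CPM. The log2 fold change of *Tspyl5* was 0.44, and 0.28 without *Mphosph8*Δ/Δn replicate 1, and that of *2310039H08Rik* 0.72, and 0.44 without replicate 3 of that group. The third member lower at an unadjusted p below 0.05, beside *Otud1* and *Riox1*, was *Ier5l*, with a log2 fold change of -0.60 (edgeR adjusted p = 0.860).

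**Figure D1:**
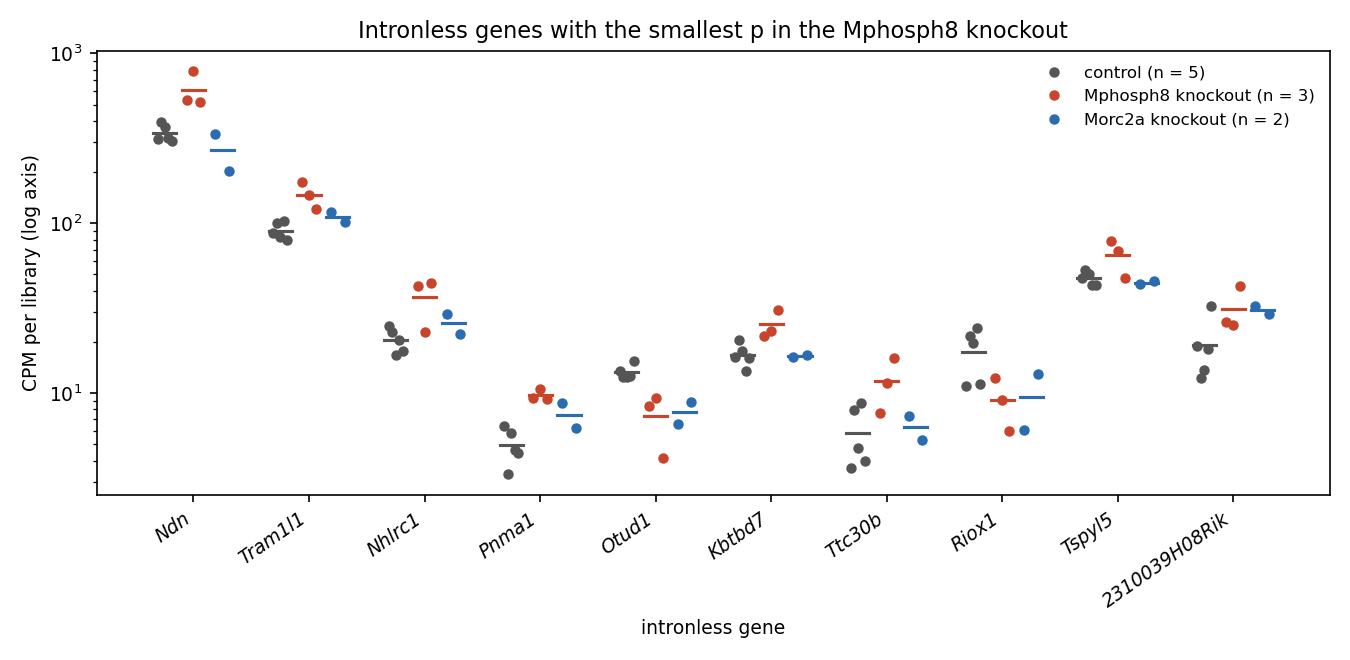
CPM in each library, on a log axis, of the 10 intronless genes with the smallest p in *Mphosph8*Δ/Δn; points are libraries (5 control, 3 *Mphosph8*Δ/Δn, 2 *Morc2a*Δ/Δn) and bars are group means. *Ndn*, *Tram1l1*, *Pnma1* and *Kbtbd7* have all 3 *Mphosph8*Δ/Δn points above the controls, *Otud1* has them below, and the other 5 overlap.

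The same question was asked of *Morc2a*Δ/Δn, which shares its controls with the comparison above. By edgeR, 0 of 158 were called higher, against 0.0377% of all genes (7), and 0 were called lower, against 0.0215% (4). At an unadjusted p below 0.05, 20 members (12.7%) were lower, against 6.4% of all genes and 8.49% of genes with introns, and 2 (1.27%) were higher, against 4.32% of all genes. In 21 members (13.3%) both *Morc2a*Δ/Δn libraries lay below all controls, against 7.8% of all genes and 9.57% of genes with introns, and in 3 (1.90%) both lay above, against 7.59% of all genes. DESeq2 gave an adjusted p to 114 of the members and to 10288 of all genes. It called 1 of the 114 lower, *Irf2bp1*, against 0.33% of all genes, and 6 lower with no fold minimum, against 2.34%. The median log2 fold change of the members was -0.10, against -0.01 over all genes tested and 0.00 over genes with introns, and 104 of the 158 were below 0. The share above 0 was 34.2% of the members, 48.7% of all genes and 49.5% of genes with introns. The summed markers of neurons were also lower in both libraries, where *Snap25* was at a mean of 1377 CPM against 1913 CPM in the controls, but *Rbfox3*, the gene of the sorted NeuN antigen, was at 265 against 232 CPM and *Map2* at 589 against 470 CPM. The part of cell composition in the members' values was not tested. In bulk nuclei, fewer cells of a type and less RNA per cell cannot be told apart.

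*Irf2bp1* (chr7:19004044-19006777, plus strand), which encodes a corepressor that binds the interferon regulatory factor IRF2, had the largest change among the 10 with the smallest p. It was at 14.4 and 9.49 CPM in *Morc2a*Δ/Δn and at 23.3, 32.1, 31.3, 37.7 and 23.4 CPM in the controls, without overlap. The log2 fold change was -1.31 (SE 0.31), with an edgeR adjusted p of 0.123. DESeq2 gave an adjusted p of 0.00398, and edgeR gave 0.0102 when genes with low counts were not filtered out. Against controls of the *Morc2a* line alone the edgeR adjusted p was 0.249. Without *Morc2a*Δ/Δn replicate 2 the log2 fold change was -1.05. In *Mphosph8*Δ/Δn *Irf2bp1* was at 15.5, 23.4 and 27.8 CPM, a range that overlapped the controls.

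*Klhl9* (chr4:88718292-88722465, minus strand), a CUL3 adaptor with a role in cell division, was at 51.3 and 39.0 CPM against 63.6, 78.2, 79.9, 80.3 and 79.2 CPM in the controls. *Cstf2t*, a form of the cleavage stimulation factor that helps to form mRNA 3′ ends, was at 51.8 and 40.7 CPM against 65.5, 84.2, 92.1, 77.9 and 75.6 CPM. *Tspyl1* was at 81.0 and 71.1 CPM against 105, 111, 136, 119 and 115 CPM. All 3 genes were lower in both knockout libraries than in any control, with log2 fold changes of -0.76 (SE 0.18), -0.77 (SE 0.18) and -0.62 (SE 0.15) and edgeR adjusted p of 0.123, 0.123 and 0.129.

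*Rraga* encodes a GTPase that signals amino acid supply to the growth regulator mTORC1. It was at 30.6 and 34.9 CPM against 55.4, 61.9, 59.1, 45.7 and 51.9 CPM. *Kcnf1* was at 125 and 92.3 CPM against 163, 200.1, 203, 145 and 135 CPM. Neither gene overlapped the controls, with log2 fold changes of -0.74 and -0.64 and edgeR adjusted p of 0.166 and 0.193. Against controls of the *Morc2a* line alone, *Kcnf1* was at -0.37 (edgeR adjusted p = 0.553).

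The remaining genes of the 10 with the smallest p were not called either. *Hnrnpa0*, an RNA-binding protein, was at 29.1 CPM in both *Morc2a*Δ/Δn libraries against 37.3 to 55.4 CPM in the controls, and *Sf3b5*, a subunit of the splicing factor that recognises branch points, at 44.2 and 36.9 CPM against 53.6 to 80.7 CPM. *Znhit2* was at 26.7 and 30.6 CPM against 36.7 to 56.7 CPM. The log2 fold changes were -0.74, -0.71 and -0.66, and the edgeR adjusted p 0.245, 0.268 and 0.270. *Gm20379*, a gene model in the span of *Msh3* on the opposite strand, was the 1 higher member of these 10, at 19.99 and 16.2 CPM against 8.88 to 11.7 CPM (log2 fold change 0.86, edgeR adjusted p = 0.308). The other member higher at an unadjusted p below 0.05 was *2310039H08Rik*, with a log2 fold change of 0.70.

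**Figure D2:**
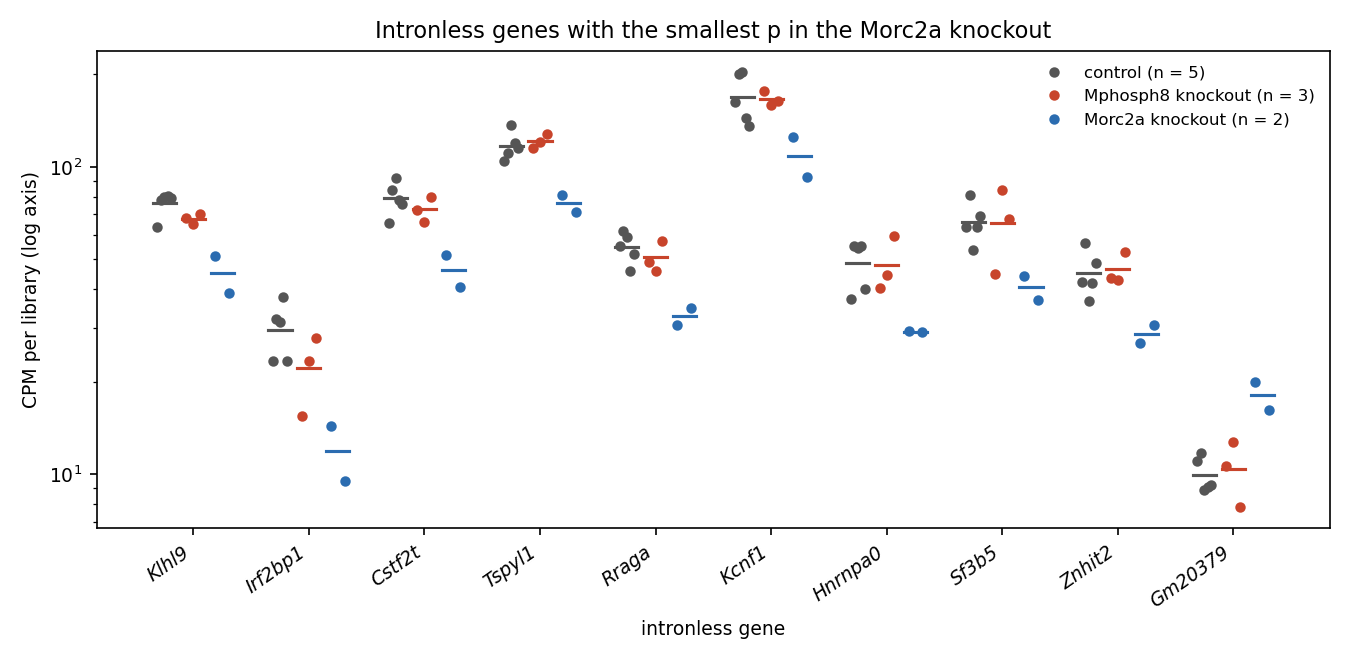
CPM in each library, on a log axis, of the 10 intronless genes with the smallest p in *Morc2a*Δ/Δn; points are libraries (5 control, 3 *Mphosph8*Δ/Δn, 2 *Morc2a*Δ/Δn) and bars are group means. In 9 genes both *Morc2a*Δ/Δn points lie below all controls and in *Gm20379* both lie above.

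By function, 57 members were in a list of gene families and 101 in none. The log2 fold changes of the 9 G protein-coupled receptor genes had their median at 0.19 in *Mphosph8*Δ/Δn, where 8 were above 0, and at -0.23 in *Morc2a*Δ/Δn, where 2 were above 0. Within this list the melanocortin receptor gene *Mc3r* stood at 0.65 and -0.64, and it was not called. The 8 imprinted and retrotransposon-derived genes had medians of 0.07 and -0.21, and the 7 SOX and POU genes 0.13 and -0.03. The 5 genes of RNA- and DNA-binding proteins had medians of 0.04 and -0.20, and the 5 histone genes 0.03 and -0.14, in both cases with 0 above 0 in *Morc2a*Δ/Δn. The 5 developmental factors *Olig1*, *Irf2bp1*, *Bhlhe22*, *Mab21l1* and *Irf2bpl* had medians of 0.10 and -0.65, with 0 above 0 in *Morc2a*Δ/Δn, where the summed markers of oligodendrocytes were at 549 and 677 CPM against 742 to 972 CPM in the controls. Sorting for NeuN should remove oligodendrocytes, and the part of any that remained in the level of *Olig1* was not tested. The 5 immediate early and bZIP genes had medians of -0.06 and -0.39. The 5 genes *Fam43b*, *Lrrc10b*, *Slitrk1*, *Amigo3* and *Tpbgl* had medians of 0.32 and 0.13. The 3 ubiquitin ligase subunits and adaptors had medians of 0.59 and -0.02, and the 3 genes of small GTPases and phosphatases -0.23 and -0.04. In each of these lists 0 genes were called in either knockout by edgeR, and a median over 3 to 9 genes rests on few values.

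The intronless genes that the rule left out by symbol had been chosen with earlier results known, and their values are given as a description with no test. Of the 28, 18 were protocadherin genes, 7 ribosomal protein genes and 3 were left out by name, and 21 had enough counts to be fitted. Their median log2 fold change was 1.08 in *Mphosph8*Δ/Δn against 0.70 in *Morc2a*Δ/Δn. *Rnf113a2* was at 56.2, 43.8 and 49.5 CPM in *Mphosph8*Δ/Δn, at 63.6 and 45.1 CPM in *Morc2a*Δ/Δn and at 18.4 to 27.8 CPM in the controls. This gene was called higher in both knockouts, at log2 fold changes of 1.08 and 1.21 (edgeR adjusted p = 0.0349 and 0.0434). *Map10* was at 10.2, 9.07 and 7.44 CPM, at 9.25 and 9.70 CPM and at 1.22 to 5.64 CPM. Its log2 fold changes were 1.90 and 1.98, and it was not called (edgeR adjusted p = 0.336 and 0.166). A gene whose groups do not overlap can thus go uncalled here, and 0 members called does not show that none changed. *Slc25a2* was at or under 7.41 CPM in every library, with groups that overlapped. *Taf7* has 2 exons and so was not intronless by the rule. Of 135 intronless genes under the CPM minimum that could be tested, 0 were called by edgeR in either knockout, with 5 (3.70%) at an unadjusted p below 0.05 for *Mphosph8*Δ/Δn and 13 (9.63%) for *Morc2a*Δ/Δn, against 5.67% and 10.7% of all genes. DESeq2 called 0 of the 126 to which it gave an adjusted p in *Mphosph8*Δ/Δn, and it gave none in *Morc2a*Δ/Δn.

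**Figure D3:**
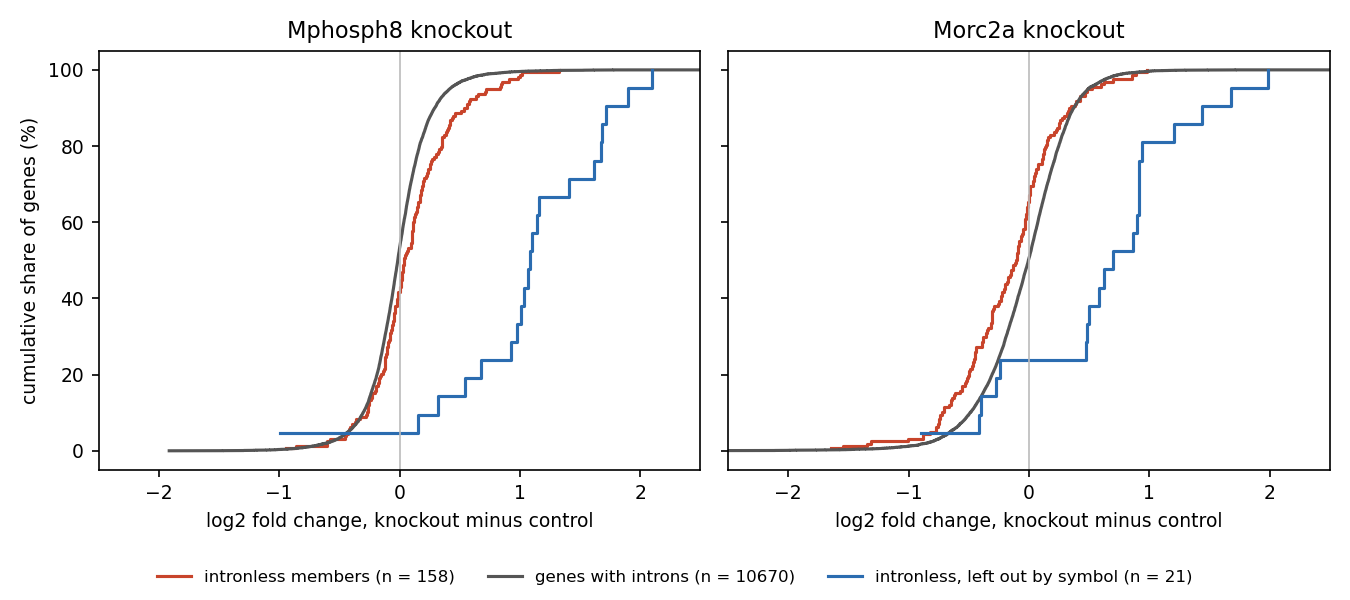
Cumulative share of genes (%) by log2 fold change, knockout minus control, for the 158 members, 10670 genes with introns at the same CPM minimum and 21 intronless genes left out by symbol, in each knockout; values beyond 2.5 in size are off the axis. The medians of members and genes with introns are 0.04 and -0.01 for *Mphosph8*Δ/Δn, and -0.10 and 0.00 for *Morc2a*Δ/Δn. The shares above 0 are 58.2% and 46.8% for *Mphosph8*Δ/Δn, and 34.2% and 49.5% for *Morc2a*Δ/Δn. The genes left out by symbol lie to the right (medians 1.08 and 0.70).

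Library by library, the members made up between 0.452% and 0.621% of all counts. Their summed level was 5081, 5830, 5624, 5526 and 4971 CPM in control replicates 1 to 5, 5586, 6014 and 6080 CPM in *Mphosph8*Δ/Δn, then 4927 and 4532 CPM in *Morc2a*Δ/Δn. Both *Morc2a*Δ/Δn sums lay below the lowest control, and 2 of the 3 *Mphosph8*Δ/Δn sums lay above the highest. The sum leans on *Ndn*, and without it the controls ranged from 4667 to 5435 CPM, *Mphosph8*Δ/Δn from 5054 to 5565 CPM and *Morc2a*Δ/Δn stood at 4592 and 4330 CPM. The median deviation of the members from their control mean, on log2(CPM + 0.5), was -0.09 to 0.13 in single controls, 0.03, 0.04 and 0.21 in *Mphosph8*Δ/Δn and -0.06 and -0.15 in *Morc2a*Δ/Δn. The first of the 2 *Morc2a*Δ/Δn libraries was thus inside the range of single controls, and the same measure over genes with introns stayed between -0.01 and 0.03 in all libraries.

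**Figure D4:**
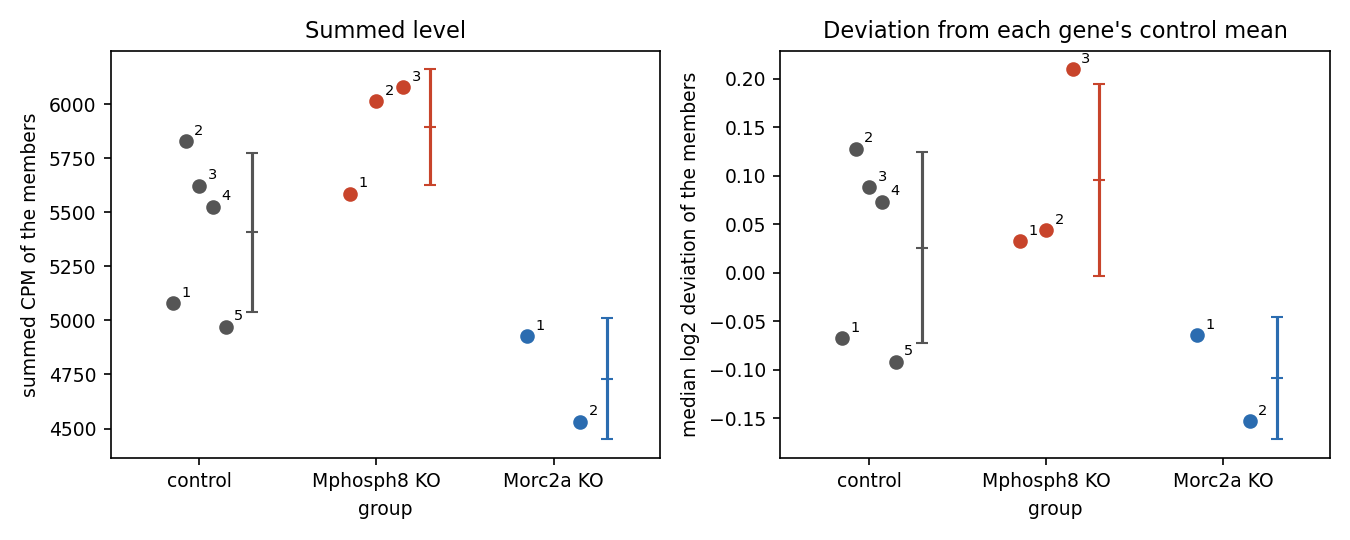
Summed CPM of the 158 members (left) and their median log2 deviation from the control mean (right) in each library; numbers are replicates and bars are group means with SD. Both *Morc2a*Δ/Δn sums (4532 and 4927 CPM) lie under the lowest control sum (4971 CPM), and the deviation of replicate 1 (-0.06) lies within the controls.

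HUSH is known for acting on long transcripts, so the members were ordered by exonic length and split into 4 classes of near-equal size. In *Mphosph8*Δ/Δn the median log2 fold change was -0.06 in the shortest class (531 to 1618 bases, 40 members), 0.05 and 0.05 in the middle classes and 0.10 in the longest (3900 to 11294 bases, 40 members). Genes with introns in the same length classes had medians of 0.01, -0.01, -0.02 and -0.02. In *Morc2a*Δ/Δn the members had medians of -0.01, -0.18, -0.31 and -0.10 from shortest to longest. Genes with introns had -0.17, -0.08, -0.03 and 0.02, an order that ran from the shortest class at the lowest median to the longest at the highest. Spearman's rho of fold change with exonic length over the 158 members was 0.11 in *Mphosph8*Δ/Δn but -0.15 in *Morc2a*Δ/Δn, a description across genes that share the same libraries. The 27 members that were both in the longest class and at or over the median adenine share had medians of 0.11 and -0.09.

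**Figure D5:**
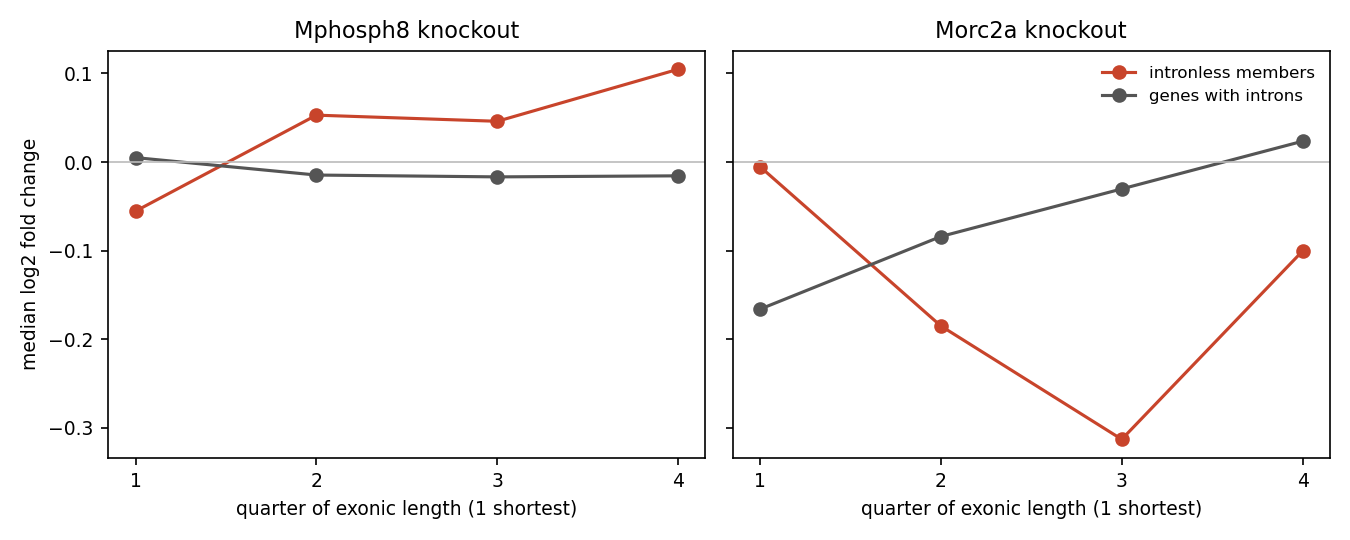
Median log2 fold change by class of exonic length (1 shortest, 4 longest), for members and for genes with introns in the same length classes, in each knockout; points carry no error. In *Mphosph8*Δ/Δn members go from -0.06 to 0.10, and in *Morc2a*Δ/Δn genes with introns go from -0.17 to 0.02 while all 4 medians of the members are below 0.

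Whether the 2 knockouts differed was tested in a fit in which each was compared with controls of its own floxed line, so that no control was shared. By edgeR, 0 members differed at an adjusted p below 0.05, as did 0 (0%) of all genes tested, with a smallest adjusted p of 0.216 among the members. At an unadjusted p below 0.05, 20 members had the higher effect in *Mphosph8*Δ/Δn while 4 had it in *Morc2a*Δ/Δn (12.7% and 2.53% of the members, against 3.91% and 4.03% of all genes), and DESeq2 was not run on this difference. The direct contrast of both knockouts, in the fit of 3 groups, found 1 member, *Ndn*, and 0.0808% of all genes (15). *Ndn* was at 515 to 788 CPM in *Mphosph8*Δ/Δn and at 335 and 202 CPM in *Morc2a*Δ/Δn, a log2 difference of 1.19 (SE 0.22, edgeR adjusted p = 0.0460). The 2 groups did not overlap. Without *Mphosph8*Δ/Δn replicate 2, the library with pituitary genes, the difference was 0.98 (edgeR adjusted p = 0.173), and without *Morc2a*Δ/Δn replicate 2 it was 0.87 (edgeR adjusted p = 0.266). The call was also lost without control replicate 1 or 3 or *Mphosph8*Δ/Δn replicate 1 or 3, at edgeR adjusted p of 0.0651, 0.0732, 0.0889 and 0.0749.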

How the data were processed

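RNA had been sequenced from NeuN+ nuclei in 10 libraries (single 50-base reads, poly(A) RNA). Per the labels and the study's methods, reads were trimmed with Trim Galore 0.5.0, cleared of ribosomal, mitochondrial and other abundant sequences with Bowtie2 2.3.4.1, aligned to GRCm38 with STAR and counted by the authors with featureCounts (Subread 1.6.2) on Ensembl release 94. The deposited values are raw read counts per gene, and the authors tested theirs with DESeq2 1.18.1. Strand and overlap settings of the counting are not given in the sources used here.

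Counts were tested with edgeR 4.0.16 (glmQLFTest, filterByExpr, TMM scaling) in R 4.3.3, in 1 fit of 3 groups, with Benjamini-Hochberg adjustment over all 18573 genes tested. Calls needed more than a 2-fold difference with an adjusted p under 0.05. DESeq2 1.42.0 was an alternative. CPM are on TMM-scaled library sizes, except the mean CPM of the rule. The code was tested on simulated data. Gene models were from GENCODE M21. The genes named were the 10 with the smallest p in each knockout and the 3 highest of each list, with the targeted genes and those at the edges of the rule, unless said otherwise. The members and lists were chosen with earlier results of these data known. Replicates differed by more than sampling noise (chi-square per degree of freedom 9.55 to 38.4 over 14 pairs). The study describes its replicates as biological, but the labels do not tie each library to a separate mouse, so p-values measure the spread between libraries, which may be partly technical.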

Additional observations from a re-analysis of the deposited data

Results flagged for a closer look

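Among the control values of 45 named members, 2 had a library far from the other 4 by Dixon's test, which chance alone gives in about 1 in 20 groups. *Klhl9* was at 63.6 CPM in control replicate 1, the lowest, against 78.2 to 80.3 CPM in the other controls. *Fam43b* was at 42.2 CPM in control replicate 2, the highest, against 25.7 to 30.0 CPM. *Ndn* differed between the knockouts by a log2 value of 1.19 (3-group fit, edgeR adjusted p = 0.0460), with all 3 *Mphosph8*Δ/Δn libraries above both *Morc2a*Δ/Δn libraries. In the fit against controls of each floxed line, which shares none, the difference was 0.98 (edgeR adjusted p = 0.410).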

How the results depend on the processing

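The count of members called was 0 in *Mphosph8*Δ/Δn, in either direction, under all 21 alternatives, and 0 called higher in *Morc2a*Δ/Δn. The count called lower in *Morc2a*Δ/Δn was 1, *Irf2bp1*, without a filter on low counts and 1 by DESeq2, and 0 otherwise. The median log2 fold change in *Mphosph8*Δ/Δn stayed between 0.02 and 0.13. In *Morc2a*Δ/Δn leaving out single libraries gave -0.219 to -0.0877, the lowest without *Morc2a*Δ/Δn replicate 1. Members differing between the knockouts were 1 in the direct contrast, and 0 to 1 in that contrast when a library was left out (1 without control replicate 2, 4 or 5 or *Morc2a*Δ/Δn replicate 1). The cause was not tested. Of 320 alternatives for 20 named fold changes, 0 reversed direction. These 20 were chosen by smallest p in the same libraries, so a reversal was unlikely in advance.

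Replicate numbers did not pair the libraries: residuals correlated at -0.03 to 0.04 within 7 pairs of the same number and at -0.06 to 0.04 within 24 others. With the replicate block, 0 members were called in either knockout, the medians were 0.03 and -0.15, and the direct contrast found 1 member. Control replicates 4 and 5, those of the *Morc2a* line, were alone in their blocks. *Morc2a*Δ/Δn was thus compared there without controls of its own line. Counts at an unadjusted p below 0.05, an alternative chosen after seeing the data, moved more: 6 to 16 members were higher in *Mphosph8*Δ/Δn (6 without replicate 3 of that group) and 2 to 6 lower, and in *Morc2a*Δ/Δn 15 to 25 were lower and 0 to 8 higher (8 with the block, 0 without replicate 1 of that group). The 2 libraries limit the *Morc2a*Δ/Δn group, and members near 5 CPM have few counts.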
